A study of Danio rerio with 6 samples.

Results

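The pyruvate dehydrogenase genes described here are 10 genes picked by symbol from the 29095 that the count tables list. They are 5 kinases (pdk1, pdk2a, pdk2b, pdk3a and pdk3b), 2 phosphatases (pdp1 and pdp2) and 3 subunits (pdha1a, pdhb and dlat). All 10 were present and passed the filter on low counts. The family was picked with the fall of pdp1 in the side population already known, so every difference between the fractions below describes these libraries and supports nothing further. The cells came from 3 tumours of zebrafish of the strain CG2 with ALL (acute lymphoblastic leukaemia), in which immature lymphocytes multiply. Each tumour, numbered 1404, 1279 or 1314, was sorted by flow cytometry into a side population (SP), by convention the cells that pump out a DNA-binding dye, and a non-side population (nonSP) that keeps it. The labels record no treatment, and they state neither the age of the fish nor an oncogene or transgene behind the tumours. With 1 library per tumour and fraction, n = 3 in each fraction and the 6 libraries form 3 pairs.

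The pyruvate dehydrogenase complex sits in the mitochondrial matrix and turns pyruvate, the end product of glycolysis, into acetyl-CoA for the citric acid cycle. Pyruvate dehydrogenase kinases add phosphate to its alpha subunit and switch the complex off, and pyruvate dehydrogenase phosphatases remove that phosphate and switch it on again. The balance of both sets whether pyruvate is oxidised or made into lactate, a choice that differs between resting and dividing lymphocytes.

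Libraries held 30213658 to 62398607 counts. Levels are CPM, counts relative to a library size that TMM factors had corrected for the make-up of the library. Over the whole table, the quasi-likelihood test of edgeR, blocked by tumour, called 22.4% of 15770 tested genes at a Benjamini-Hochberg adjusted p below 0.05, with 13.0% higher and 9.40% lower in SP. "Called" below has this meaning. With the block dropped, edgeR called 0 genes, and 1251 had an unadjusted p below 0.05. With library totals in place of TMM, the median log2 fold change of the tested genes was 1.15 and not 0.09, a shift of 1.07, so all fold changes are relative to the TMM scale. In bulk RNA, fewer cells that express a gene and less RNA per cell cannot be told apart.

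Of the 10 genes, 1 was called higher in SP (pdk2b) and 1 lower (pdp1), against 13.0% and 9.40% of all tested genes. These counts are close to the shares of the whole table, and the other 8 genes were not called. The median log2 fold change of the 10 genes was 0.31, against 0.09 for the whole table. With library totals 6 were called higher and pdp1 alone lower, against 50.8% and 1.76% of all tested genes. The fractions did not overlap in CPM for 1 of the 10 genes, pdp1, against 15.2% of all tested genes (6.60% with every nonSP library above every SP library, as in pdp1, and 8.64% the other way). The low values of pdk2b, pdp2 and pdk3b passed the filter through the SP libraries. pdk2b and pdp2 reached the filter's level of 0.182 CPM in 2 of 3 nonSP libraries and pdk3b in 1 of 3.

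**Figure D1:**
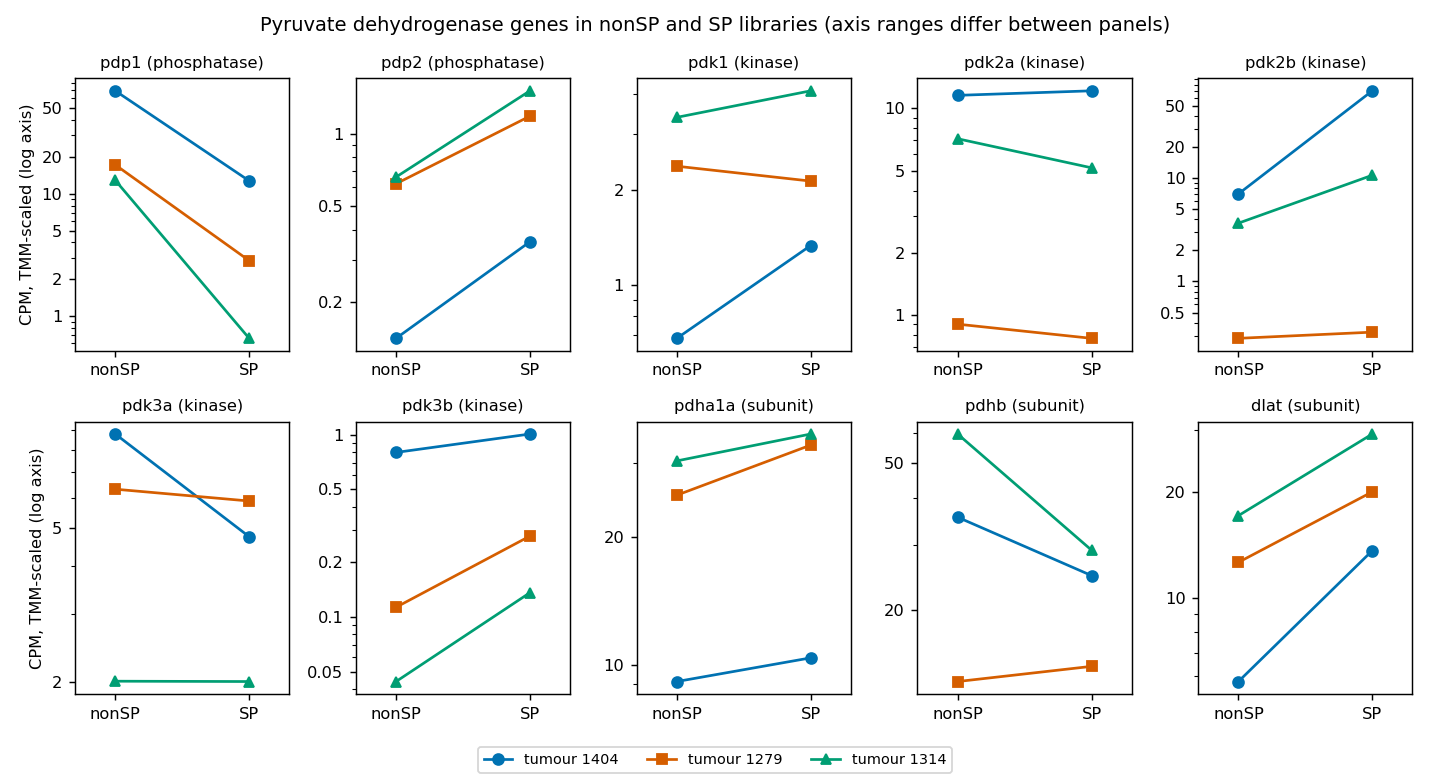
TMM-scaled CPM (log axis, with its own range in each panel) of the 10 genes in nonSP and SP libraries, with a line joining the fractions of a tumour. The pdp1 lines drop in all 3 tumours, from 12.9 to 69.3 CPM in nonSP to 0.657 to 12.7 CPM in SP, while pdp2 and dlat lines climb in all 3.

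The phosphatase pdp1, the gene of the catalytic subunit that in mammals is stimulated by calcium, stood at 69.3 CPM in the nonSP library of tumour 1404, at 17.2 CPM in that of 1279 and at 12.9 CPM in that of 1314. In SP its level was 12.7 CPM, 2.84 CPM and 0.657 CPM in the same order of tumours, which is kept below. Every SP library thus lay below every nonSP library, though SP of tumour 1404 came close to nonSP of tumour 1314. The means were 33.1 ± 31.4 CPM in nonSP and 5.41 ± 6.44 CPM in SP (SD, n = 3), so that the tumours spread as widely as the fractions differed. Within a tumour the log2 ratio of SP to nonSP was -2.44, -2.59 and -4.22. The fitted log2 fold change was -3.07 ± 0.43 (SE), or 8.42-fold lower in SP, the 35th lowest among the 15770 genes. Behind these values stood 2949, 305 and 583 counts in nonSP, and 859, 184 and 63 counts in SP. Without the tumour block the value was -2.61 and no longer called. With library totals it was -2.01 and still called, but the fractions then overlapped, since SP of tumour 1404 at 15.3 CPM lay above nonSP of 1279 and 1314 at 10.1 and 10.5 CPM.

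The other phosphatase, pdp2, was scarce and leaned the opposite way. Its SP level was 0.356, 1.19 and 1.51 CPM and its nonSP level 0.141, 0.621 and 0.662 CPM. It was higher in SP within each tumour, by log2 ratios of 1.15, 0.90 and 1.15, but the fractions overlapped because SP of tumour 1404 lay below nonSP of the other two. The fitted log2 fold change of 1.14 ± 0.56 was not called. It rested on as few as 6 and 11 counts in nonSP of tumours 1404 and 1279. With library totals pdp2 was called higher, at 2.22.

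The make-up of the phosphatase counts therefore differed between the fractions, a measure that no scaling factor touches. In nonSP, pdp1 gave 99.8% (95% exact Clopper-Pearson interval 99.6 to 99.9), 96.5% (93.9 to 98.2) and 95.1% (93.1 to 96.7) of the counts of both phosphatases. In SP the share was 97.3% (96.0 to 98.3), 70.5% (64.6 to 76.0) and 30.3% (24.1 to 37.0). The SP share was lower in each tumour, with intervals that did not overlap within a tumour, and in SP of tumour 1314 pdp2 had more counts (145) than pdp1 (63). These intervals cover counting error only.

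Among the kinases, pdk2b was the one called, and its difference was uneven between tumours. Its nonSP level was 7.02, 0.282 and 3.66 CPM, and its SP level was 69.7, 0.324 and 10.6 CPM. Tumour 1279 hardly expressed it in either fraction, with 5 counts in nonSP and 21 in SP. The log2 ratios were 3.30, 0.18 and 1.53, and the fitted log2 fold change was 2.03 ± 0.50, or 4.08-fold higher in SP, which 862 of the 15770 tested genes reached or exceeded. SP and nonSP overlapped, since SP of tumour 1279 lay below nonSP of the other tumours. Without tumour 1404 the value fell to 1.08 and was not called, and without the block it was 2.87 and also not called.

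The remaining kinases were not called. pdk2a, the paralogue of pdk2b, stood at 12.2, 0.771 and 5.16 CPM in SP and at 11.6, 0.903 and 7.13 CPM in nonSP (log2 fold change -0.20 ± 0.39). Like pdk2b it was lowest in tumour 1279, but its fractions lay close together in each tumour. pdk1, whose mammalian counterpart is a target of the hypoxia-inducible factor, was at 1.33, 2.13 and 4.09 CPM in SP and 0.681, 2.37 and 3.38 CPM in nonSP (0.35 ± 0.45). Its sign rested on tumour 1404, without which the value was -0.03. pdk3a had log2 ratios of -0.88, -0.10 and 0.00 (fitted -0.33 ± 0.40), so the lower value in SP came mostly from tumour 1404. pdk3b (0.87 ± 0.70) had 34, 2 and 2 counts in nonSP against 68, 18 and 13 in SP, too few for a ratio in each tumour. With library totals pdk1 and pdk3b were called higher and pdk2a and pdk3a changed sign without being called (0.85 and 0.74). How the counting treated reads shared between the a and b copies of pdk2 and pdk3 is not stated. The division within a pair is therefore uncertain, and so is its sum if such reads were dropped.

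**Figure D2:**
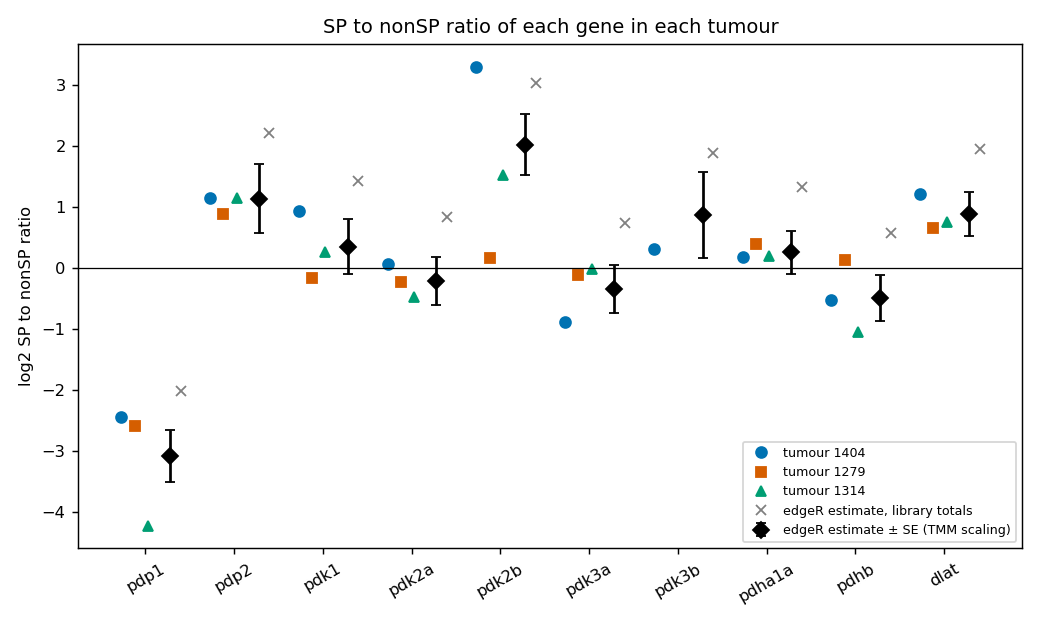
Log2 ratio of SP to nonSP for each gene in each tumour (coloured points), with edgeR's estimate ± SE under TMM scaling (black) and its estimate with library totals (grey crosses). pdp1 lies between -4.22 and -2.44, and pdk2b spans 0.18 to 3.30. Points that rest on at most 3 counts in a library (pdk3b in tumours 1279 and 1314) are left out.

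Among the 5 kinases, which leave out pdk4, the one that gave most counts differed between fractions in 2 tumours. In tumour 1404 pdk2b supplied 24.3% (95% exact interval 22.0 to 26.8) of the counts of the 5 kinases in nonSP and 78.4% (77.3 to 79.4) in SP, and in tumour 1314 22.6% (19.6 to 25.8) and 48.3% (46.2 to 50.5). pdk2a held 40.1% and 43.9% in nonSP of these tumours, the highest share of the 5, and 13.7% and 23.4% in SP. pdk4 is no member, but in nonSP of tumour 1404 it had more counts (542) than pdk2a (492). With pdk4 in the sum, pdk2b held 16.9% in nonSP and 70.2% in SP of tumour 1404, and 21.3% and 47.1% in 1314. In tumour 1279 the make-up hardly moved. pdk3a held 63.3% of the kinase counts in nonSP and 62.7% in SP there, and pdk2b 2.82% (0.923 to 6.47) and 3.45% (2.15 to 5.22). Counts are not divided by transcript length, so these shares compare libraries, not the amounts of the kinases with each other.

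**Figure D3:**
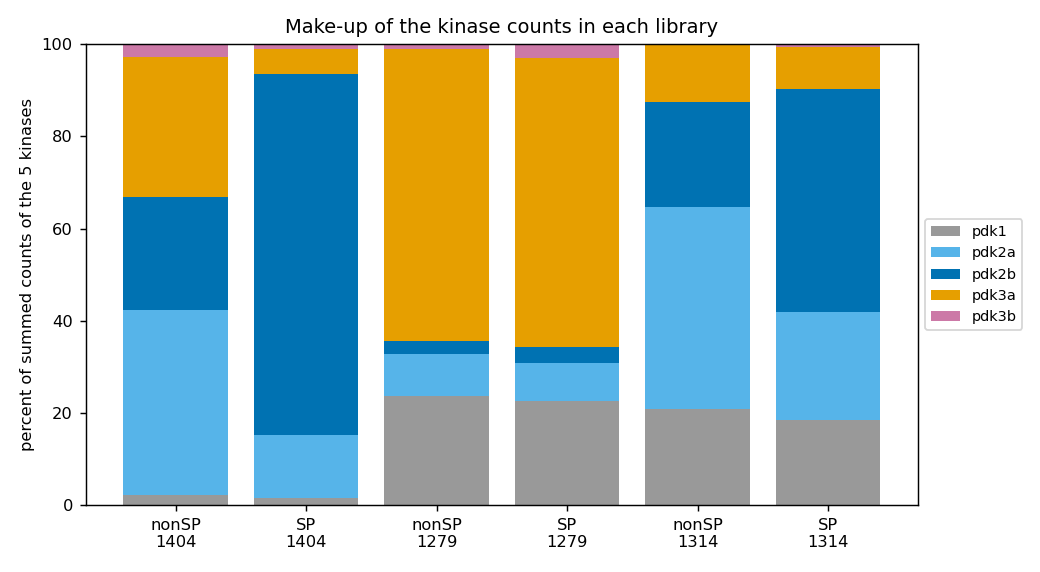
Share of each kinase in the summed counts of pdk1, pdk2a, pdk2b, pdk3a and pdk3b in a library, in percent, with pdk4 left out. pdk2b takes 78.4% and 48.3% in SP of tumours 1404 and 1314 against 24.3% and 22.6% in nonSP, while both bars of tumour 1279 are led by pdk3a at 62.7% and 63.3%.

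Within a library, the ratio of kinase to phosphatase counts was higher in SP in each tumour. The ratio of the summed counts was 0.416, 0.560 and 1.20 in nonSP and 6.80, 2.33 and 10.1 in SP. All SP libraries lay above all nonSP libraries. The ratio was 16.4-fold, 4.17-fold and 8.46-fold higher in SP of the 3 tumours, a mean log2 difference of 3.06 ± 0.99 (SD, n = 3). With pdk2b left out of the sum it was 4.68-fold, 4.14-fold and 5.65-fold higher (2.26 ± 0.23), and with pdk4 added 12.7-fold, 4.65-fold and 8.19-fold higher (2.97 ± 0.72). The difference came mainly from pdp1. Summed phosphatase counts per subunit count were 1.37, 0.352 and 0.126 in nonSP and 0.268, 0.0599 and 0.0233 in SP. Within a tumour that ratio was 5.12-fold, 5.88-fold and 5.42-fold lower in SP (mean log2 difference -2.45 ± 0.10). With pdha1a, pdhb and dlat as the subunits, the size was nearly the same each time, although the level of the ratio differed widely between tumours. That evenness belongs to the sums chosen, since pdp1 alone had uneven log2 ratios of -2.44, -2.59 and -4.22 (TMM scaling). The subunit sum also leaves out pdhx and dldh, other genes of the complex. In tumour 1279 pdhx had 1129 counts in SP and 1115 in nonSP, and dldh 1809 and 479. The 3 subunits summed to 4355 and 897 there. With both genes added to the subunits, the drop of the phosphatase ratio is smaller in 1279 than in the other tumours. The 3 sizes are then no longer nearly the same. The exact ratios with both added are not given here. In SP of tumour 1314, 145 of the 208 phosphatase counts were of pdp2. Summed kinase counts per subunit count were 0.571, 0.197 and 0.151 in nonSP and 1.82, 0.140 and 0.236 in SP. By the same choice of subunits, SP was higher in tumours 1404 and 1314 and lower in 1279. The direction in 1279 depends on that choice. Kinase counts there were 609 in SP and 177 in nonSP, and with pdhx and dldh added to the subunits SP is the higher fraction. With the 3 subunits alone, the rise in tumours 1404 and 1314 rested on pdk2b. Without it the ratio was 0.432, 0.192 and 0.117 in nonSP and 0.395, 0.135 and 0.122 in SP, lower in SP of tumours 1404 and 1279 and nearly equal in 1314. Against pdp2 alone the ratio was lower in SP in all 3 tumours for pdk1, pdk2a and pdk3a, with mean log2 differences of -0.79, -1.36 and -1.48. For pdk2b the difference was 1.98, -0.74 and 0.35 in tumours 1404, 1279 and 1314, so its sign varied, and pdk3b had too few counts.

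**Figure D4:**
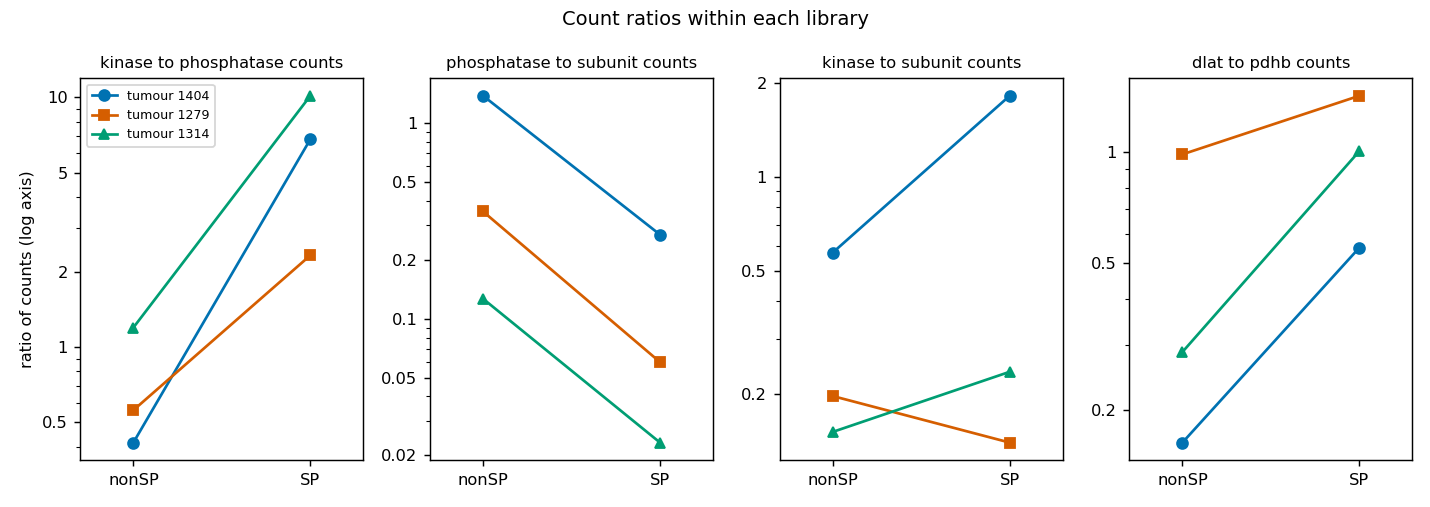
Ratios of summed counts within each library (log axes), which no scaling factor alters, with a line joining the fractions of a tumour. Subunit counts are those of pdha1a, pdhb and dlat summed, without pdhx and dldh. Phosphatase (pdp1 and pdp2 summed) per subunit counts drop 5.12-fold to 5.88-fold in SP along 3 nearly parallel lines. Kinase counts per count of the same subunits fall in tumour 1279 and climb in the other two. With pdhx and dldh added (not drawn), the kinase ratio climbs in 1279 too and the phosphatase lines are less parallel.

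None of the 3 subunits was called. dlat, the gene of the acetyltransferase that forms the core of the complex, stood at 13.6, 20.0 and 29.2 CPM in SP and at 5.80, 12.6 and 17.1 CPM in nonSP. It was higher in SP within each tumour, by log2 ratios of 1.23, 0.66 and 0.77, and the fitted value was 0.89 ± 0.36. The fractions overlapped across tumours. pdha1a, the gene of the alpha subunit that the kinases phosphorylate, showed SP levels of 10.4, 33.0 and 35.1 CPM and nonSP levels of 9.14, 25.2 and 30.3 CPM (0.26 ± 0.35). pdhb, the gene of the beta subunit that pairs with it, stood at 24.8, 14.1 and 29.0 CPM in SP and 35.6, 12.8 and 59.7 CPM in nonSP (-0.48 ± 0.37). Its ratio was below 0 in tumours 1404 and 1314 and above 0 in 1279. Independent of scaling, dlat counts per pdhb count were 3.38-fold, 1.44-fold and 3.51-fold higher in SP, and pdha1a counts per pdhb count 1.63-fold, 1.19-fold and 2.38-fold higher. With library totals dlat (1.96) and pdha1a (1.34) were called higher and pdhb stood at 0.59, not called.

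The tumours differed from each other in all 10 genes, a comparison that played no part in picking them. Each tumour has only its 2 fractions as libraries. Any difference in handling between tumours therefore cannot be told apart from the tumours themselves. A joint edgeR test of the 2 tumour terms, with the fraction held in the model, gave adjusted p-values from 2.24e-07 (pdk2b) to 0.0426 (dlat), against 53.2% of all tested genes called. pdk2b varied most, 24.9-fold between the highest and the lowest tumour in nonSP and 215-fold in SP. It was highest in tumour 1404, and the log2 difference of 1279 from 1404 was -6.67. pdk2a was 3.83 lower in tumour 1279 than in 1404 (edgeR adjusted p = 1.09e-05 for the joint test), and pdp1 was 2.10 and 3.24 lower in 1279 and 1314 than in 1404 (edgeR adjusted p = 2.36e-05). By contrast pdha1a was 1.57 and 1.74 higher on the log2 scale in tumours 1279 and 1314 than in 1404, pdp2 1.89 and 2.13 higher, and pdk1 1.19 and 1.91 higher. pdk3a was close in 1404 and 1279 (difference -0.10) and 1.70 lower in 1314 than in 1404.

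The tumours were also taken in pairs, each by a new fit with the remaining tumour left out, filtered and scaled anew. These fits hold fewer libraries, so their p-values are not comparable with those of the joint test. pdp1 and pdk2b differed in all 3 pairs, with edgeR adjusted p-values up to 0.00967 and 0.00918. The other 8 genes missed the threshold in at least 1 pair. pdha1a, pdp2, pdk3b, pdk1 and dlat missed it between 1279 and 1314 (edgeR adjusted p = 0.904, 0.869, 0.427, 0.310 and 0.442). Between 1404 and 1279, pdk3a (edgeR adjusted p = 0.934), dlat (0.195), pdk1 (0.144), pdhb (0.0730) and pdp2 (0.0567) missed it, and between 1404 and 1314, pdk2a (0.135) and pdhb (0.457). The joint call of dlat ended with RLE factors (edgeR adjusted p = 0.0658), upper-quartile factors (0.108) and the stricter filter (0.0912). That of pdp2 ended with upper-quartile factors (0.0632) and that of pdk3a with library totals (0.0737).

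Lymphoid markers moved with the tumour too. The summed level of 7 T lymphoid markers found in the tables was 858 CPM in SP and 1083 CPM in nonSP of tumour 1279, against 61.5 to 148 CPM in the other 4 libraries. This sum includes rag1 and rag2, which do not mark T cells alone and whose levels are given below. For 7 B lymphoid markers the summed level was 1.76 and 2.76 CPM in tumour 1279 and 52.8 to 104 CPM elsewhere. Both libraries of 1279 had syk and blnk at 0. cd22 of the same list went the other way, at 0.247 CPM in SP and 1.35 CPM in nonSP of 1279 and at 0 in the other 4 libraries. The recombinase genes rag1 and rag2, marks of immature lymphocytes, did not move alike. rag1 stood at 7.86, 215 and 2.86 CPM in SP and 13.4, 340 and 1.65 CPM in nonSP, so it was scarce in tumour 1314, and was not called between fractions. rag2 stood at 30.9, 69.1 and 27.7 CPM in SP and 69.1, 209 and 83.8 CPM in nonSP and was called lower in SP (log2 fold change -1.45 ± 0.38, edgeR adjusted p = 0.00841). Between fractions, the summed level of 11 skeletal muscle markers was 35.4 to 73.6 CPM in SP and 3.19 to 28.8 CPM in nonSP, mostly from neb and ttna. The list was not uniform. actc1b (log2 fold change -1.53 ± 0.75, not called) and mylpfa (at most 9 counts in any library) were lower in SP in each tumour. ttnb was higher, with 6, 8 and 27 counts in SP and 0 in nonSP. ckma, ckmb, myhz1.1 and tnnt3a had at most 3 counts in any library and pvalb1 had 0. The 8 myeloid markers summed to 7.80 to 58.1 CPM in SP and 16.4 to 65.0 CPM in nonSP, and the 5 erythroid markers found to 5.84 to 22.0 CPM and 2.07 to 11.3 CPM. Of the T lymphoid markers rag2 alone was called, and in the other lists 1 B lymphoid marker higher, 1 myeloid marker higher and 1 lower, and 2 erythroid and 2 muscle markers higher. The part of these markers in the differences between tumours and fractions was not tested.

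Around the complex, 7 lists held 74 different tested genes, of which 9 were called higher and 5 lower in SP, against 13.0% and 9.40% of all tested genes. Of the 5 other genes of the complex, 1 was called lower and 0 higher (median log2 fold change -0.26). It was PDPR, the gene of the regulatory subunit of the same phosphatase that pdp1 encodes in mammals. PDPR stood at 16.5, 24.3 and 24.0 CPM in nonSP and 5.57, 4.59 and 9.95 CPM in SP, and all SP libraries lay below all nonSP libraries. Its log2 fold change was -1.74 ± 0.38 (edgeR adjusted p = 0.00245), a call that ended without tumour 1279 (-1.40, adjusted p = 0.0571) and with library totals (-0.67). dldh, the dihydrolipoamide dehydrogenase subunit shared with sister complexes, had a log2 fold change of -0.26 ± 0.36 and was not called, and neither was the kinase gene pdk4 (-0.03 ± 0.44).

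Of 10 tested genes of pyruvate supply and transport, 1 was called higher and 0 lower (median -0.28). It was ldhbb, a lactate dehydrogenase gene, with 1.46, 2.82 and 1.13 CPM in nonSP against 5.19, 10.5 and 3.66 CPM in SP, so the fractions did not overlap. ldhbb rose by 1.81 ± 0.41 (edgeR adjusted p = 0.00327). Its paralogue ldhba stood at 627, 266 and 1111 CPM in nonSP and 370, 190 and 463 CPM in SP. Its log2 fold change of -0.84 ± 0.32 missed the threshold (edgeR adjusted p = 0.0585), was called lower with RLE factors, upper-quartile factors, the stricter filter, DESeq2 and limma voom, and was 0.23 with library totals. The mitochondrial pyruvate carrier genes mpc1 (-0.77 ± 0.38) and mpc2 (-0.48 ± 0.37) were not called.

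Of 13 tested genes for the lipoyl and thiamine cofactors of the complex, 1 was called lower and 0 higher (median -0.17). lipt1, a lipoyltransferase that in mammals attaches lipoate to the core subunits of such complexes, stood at 3.15, 0.621 and 1.37 CPM in nonSP, and in SP at 0.460, 0.170 and 0.271 CPM. It fell by 2.36 ± 0.55 (edgeR adjusted p = 0.00394), with all SP libraries below all nonSP libraries. Its counts were low, at 134, 11 and 62 in nonSP and 31, 11 and 26 in SP. With library totals it was -1.31 and not called. The fractions then overlapped, since SP of tumour 1404 at 0.554 CPM lay above nonSP of 1279 at 0.364 CPM. lipt2, which acts before lipt1 in mammals, stood at 0.14 ± 0.37. Of 13 citric acid cycle genes, 2 were called lower and 0 higher (median -0.16). They were mdh2, a malate dehydrogenase (-1.28 ± 0.31, edgeR adjusted p = 0.00525), and fh, fumarate hydratase (-1.28 ± 0.36, adjusted p = 0.0140). mdh2 levels of 1016, 619 and 622 CPM in nonSP faced 445, 253 and 243 CPM in SP, without overlap. Both lost their call with library totals (-0.20 each) and without tumour 1314 (edgeR adjusted p = 0.0925 and 0.0991), and fh without 1279 (0.0819). The entry enzyme cs, citrate synthase, showed 0.03 ± 0.38.

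Of 9 genes of the sister dehydrogenase complexes and their regulators, 1 was called higher and 0 lower (median 0.31). It was bckdk, the kinase of the branched-chain keto acid dehydrogenase and a relative of the pdk family. SP levels of bckdk were 49.8, 19.7 and 16.3 CPM and nonSP levels 9.33, 8.63 and 8.12 CPM, a rise of 1.53 ± 0.39 (edgeR adjusted p = 0.00685). All SP libraries lay above all nonSP libraries, though the call ended without tumour 1404 (0.98, edgeR adjusted p = 0.0714). ppm1k, the phosphatase opposing bckdk, had 0.94 ± 0.36 and was not called, and ogdha, of the oxoglutarate dehydrogenase complex, had -0.43 ± 0.37.

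Of 16 tested phosphatases of the PPM family, to which pdp1 and pdp2 belong, 1 was called higher and 1 lower (median 0.58). pptc7a, a mitochondrial phosphatase gene, had 273, 160 and 40.2 CPM in SP and 47.6, 63.5 and 12.2 CPM in nonSP. It rose by 1.86 ± 0.40 (edgeR adjusted p = 0.00216), although SP of tumour 1314 lay below nonSP of the other two. ilkap, the phosphatase associated with integrin-linked kinase, fell by 1.56 ± 0.48 (edgeR adjusted p = 0.0217). Its call ended with library totals (-0.49), without tumour 1404 (-1.44, edgeR adjusted p = 0.0555) and without 1279 (-1.36, 0.142).

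Of 12 tested regulators known in mammals to act on pdk genes, 6 were called higher and 0 lower, against 13.0% and 9.40% of all tested genes (median 1.44, against 0.09 for the whole table). With library totals 12 were called higher, against 50.8% of all tested genes. The list was written with earlier results of these data known, so these shares only describe it. Of the pdk genes pdk2b was called higher, while pdk1 (0.35) and pdk4 (-0.03) were among those not called. Whether the regulators act on pdk genes in these cells was not tested. ppargc1b, a coactivator of nuclear receptors, stood at 10.6, 22.2 and 10.02 CPM in nonSP, well below its SP levels of 130, 55.6 and 41.3 CPM. The fractions of ppargc1b did not overlap, and its rise was 2.31 ± 0.45 (edgeR adjusted p = 8.87e-04). foxo1a, a forkhead factor, rose by 1.72 ± 0.40, hif1ab, a hypoxia-inducible factor subunit, by 1.63 ± 0.40, and foxo3b, also a forkhead factor, by 1.37 ± 0.39. hif1aa (1.59 ± 0.53) and epas1b (1.83 ± 0.66) passed close to the threshold (edgeR adjusted p = 0.0337 and 0.0489). The fractions of foxo1a did not overlap, but those of hif1ab, foxo3b, hif1aa and epas1b did. For hif1ab, SP of tumour 1314 at 176 CPM lay below nonSP of 1279 at 236 CPM. epas1b was expressed mainly in tumour 1279, at 9.34 CPM in SP and 1.47 CPM in nonSP, and had 0 counts in both libraries of 1314. Its call ended with RLE factors, upper-quartile factors and DESeq2, and that of hif1aa with upper-quartile factors and without tumour 1279 (1.66, edgeR adjusted p = 0.0819) or 1314 (0.75, 0.483). The calls of foxo1a (1.32, edgeR adjusted p = 0.0670) and foxo3b (1.37, 0.0906) ended without tumour 1314, and that of foxo3b also without 1404 (0.96, 0.0586).

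**Figure D5:**
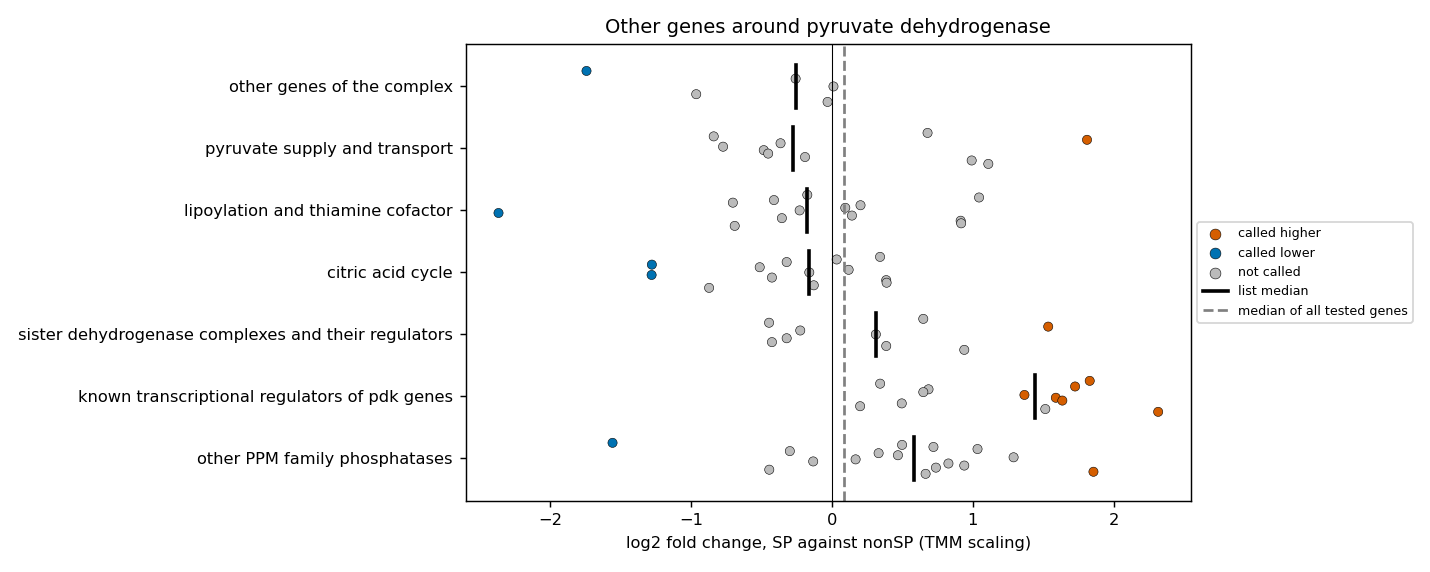
Log2 fold change of SP against nonSP (TMM scaling) for the tested genes of 7 lists, with called genes in colour, list medians as black bars and the median of all tested genes (0.09) as a dashed line. Regulators of pdk genes have a median of 1.44 with 6 of 12 called higher, and the other lists have medians from -0.28 to 0.58 with at most 2 calls. The lists were written with earlier results of these data known.

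The genes whose 3 tumour ratios lay nearest those of pdp1 were ier5l, btbd6b, nusap1, prr18 and ankrd37, among tested genes with an average log2 CPM of at least 3. Genes with a clone or locus name, or a symbol with a colon, full stop or bracket, were left out of this ranking. Their root mean square difference from pdp1 over the 3 tumours was 0.30, 0.40, 0.42, 0.47 and 0.48 on the log2 scale. ier5l, an immediate early response gene, had ratios of -2.49, -3.05 and -3.97. nusap1, a gene of the mitotic spindle, had -2.34, -2.89 and -3.56. The genes were picked for this likeness, so their pattern adds nothing to that of pdp1.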

How the data were processed

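The authors deposited raw counts per gene symbol, 1 table for each of 6 libraries. Per the submitters' processing notes, featureCounts 1.28.1, STAR 2.5.1b, edgeR 3.20.7, DESeq 1.30.0, Cufflinks 2.2.1 and the genome build GRCz10 were used, with roles, annotation release and strand setting not given in the sources used here. Without the strand setting, reads of overlapping and antisense genes cannot be told apart. Groups and tumour numbers came from the sample titles. Deviations from the group means of the 2 libraries of a tumour correlated at 0.753 (1404), 0.839 (1279) and 0.818 (1314), and those of different tumours at -0.485 to -0.274. Centring on the group means by itself makes values between tumours lean negative, so these do not show that tumours are opposed. The pairing comes from the design text, which compares fractions of 3 tumours. Whether the tumours arose separately is not stated, so p-values refer to these pairs only. The spread behind a p-value is borrowed largely from other genes and is not that of the gene's own 3 pairs alone. For pdk2b the 3 log2 ratios had a mean of 1.67 and an SD of 1.57, and the fitted SE was 0.50. These are different measures, since an SD describes single ratios and an SE an estimate. No 2 libraries agreed within sampling noise.

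The fit was made with edgeR 4.0.16 (R 4.3.3): filterByExpr by group (minimum count 10, minimum total 15), TMM, and robust glmQLFit with tumour and fraction, with Benjamini-Hochberg adjustment over 15770 genes. The SE is the log2 fold change divided by the square root of F and borrows its spread from other genes, with 23.2 prior degrees of freedom. For the ratios within a tumour, a prior count of 2 was added before taking log2 CPM. The alternatives included RLE and upper-quartile factors, library totals, no filter and a stricter one, no block, each tumour left out, DESeq2 1.42.0 and limma 3.58.1 (voom with quality weights). The scripts were tested on simulated data.

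The members and lists were chosen with earlier results of these data known. Named genes are all 10 members, up to 6 called genes of each list with the lowest p, its gene of highest mean CPM, and the 5 genes nearest pdp1. pdk4, mpc1, mpc2, cs and ppm1k were added after their values were seen. List symbols were matched as the tables spell them, and dld, which in zebrafish denotes a Notch ligand, was left out. Transcript lengths of the authors' build were not used. Where counts or CPM of different genes are set side by side, they therefore do not rank the amounts of the transcripts.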

Additional observations from a re-analysis of the deposited data

How the results depend on the processing

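Counts of called genes depended on the scaling, the filter and the block. The 2047 higher and 1483 lower genes became 8015 and 277 with library totals, 1048 and 904 with the stricter filter (10 counts in at least 3 libraries and an average log2 CPM of 3), 0 and 0 with no replicate block, and 1141 to 1396 and 667 to 1685 with a tumour left out. The 8386 genes that differed between tumours became 3619 with the stricter filter, which tests fewer genes, and 5212 to 6661 with a tumour left out. Over the 7 lists, 9 higher and 5 lower genes became 44 and 0 with library totals, 0 and 0 with no replicate block, and 6 to 8 and 2 to 5 with a tumour left out, and DESeq2 called 8 lower. For the causes of these moves no test was run, apart from the smaller numbers of genes or samples. The kinase to phosphatase difference of 3.06 (mean log2) ranged from 2.57 to 3.56 with a tumour left out. Against pdp1 alone it was highest for pdk2b (4.79) and pdk3b (4.20), and the other kinases lay lower. Against pdp2 alone it was -0.79 (pdk1), -1.36 (pdk2a), 0.53 (pdk2b), -1.48 (pdk3a) and -0.0700 (pdk3b). Both pdk3b values rest in part on 2 counts in nonSP of tumours 1279 and 1314, so their size is uncertain. Against pdp2 the sign of pdk3b varied between tumours. The versions without pdk2b and with pdk4 were chosen after seeing the data.

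Of the members' log2 fold changes under the alternatives, 93 kept their direction and their side of the threshold, 5 passed it only with the alternative (library totals in each case), 3 lost it and 4 changed sign. Those that changed sign were pdk1 without tumour 1404 (-0.0349 to 0.622 over the 3 omissions) and, with library totals, pdk2a (0.85), pdk3a (0.74) and pdhb (0.59). Among other named genes, dldh (0.81), ldhba (0.23) and ogdha (0.65) changed sign with library totals and lipt2 without tumour 1404 (-0.32 to 0.380 over the 3 omissions). The block fit is the main one, since both fractions come from 1 tumour. Without it pdp1 (-2.61) and pdk2b (2.87) lost their calls, as did every other gene. The 5 genes nearest pdp1 were the same 5 with a prior count of 0.5. Low counts of pdk3b, pdp2 and, in tumour 1279, pdk2b limit what their ratios can show.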
